A study of Mus musculus with 6 samples.

Results

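Of 33961 CD45+-enriched cells of CT26 tumors, 203 carry the plain label T cells, which stands beside the more specific labels T cell EFF, T cell MEM, T cell Naive and NKT. The cells described here are those whose label is exactly T cells, 0.598% of all cells (95% exact binomial interval 0.519 to 0.686, counting error only) and 3.47% of the 5851 cells with any of these 5 labels. CT26 is a mouse colon carcinoma line, grown here under the skin of wild-type Balb/c females 5 to 6 weeks old, and tumors were taken 5 days after treatment for droplet-based 3' single-cell mRNA-seq, in which a captured transcript is counted by its unique molecular identifier (UMI). The sample labels describe 6 tumors: 2 treated with vehicle, 2 with a low dose and 2 with a high dose of a bispecific that joins an anti-PD-1 antibody to GITR ligand. The labels give 30 mg/kg for the high dose and disagree between fields on the low dose (10 or 30 mg/kg), while the study's text names a different dose for this experiment and an isotype control in place of vehicle. The table holds 4 libraries, named M1, M2, M5 and M6, and none of these names pairs with a sample label, so no value was compared between treatments and no p-value is given.

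A T cell is recognized by the CD3 chains of its receptor complex, and in tumors the CD4+ and CD8+ lineages divide into several states. CD8+ effector cells carry granzymes and perforin, and cells under lasting stimulation gain PD-1, TIM-3 and LAG-3. Regulatory T cells (Treg cells) are CD4+ cells that depend on the transcription factor Foxp3 and carry high levels of CTLA-4, ICOS and GITR. Naive, central memory and recirculating cells keep the egress receptor S1PR1 and the factors KLF2, TCF-1 and LEF-1.

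The label was given by the highest correlation of a cell with ImmGen reference profiles, and which genes entered the correlation is not given in the sources used here, so any gene may have taken part in the choice of the cells. The values below describe which cells the label gathered, and a comparison of labels is no test. Levels are in CPM, counts per 1e+06 UMIs summed over the cells of a group. Shares of cells with a UMI were counted after each cell was thinned to 2000 UMIs, because a deeper cell shows more genes, and this left out 5 of the 203 cells.

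Cells of the label were unevenly spread over the libraries. M1 held 11, M2 19, M5 82 and M6 91, which is 0.107%, 0.213%, 1.15% and 1.20% of each library's cells. As a share of the 5 T cell labels these are 0.975%, 1.53%, 4.44% and 5.56%, and the intervals of M1 and M2 lie below those of M5 and M6 on both scales. Each other T cell label also made up less of all cells in M1 and M2 than in M5 and M6, so this direction was not particular to the T cells label. The intervals lay apart only for T cell MEM and NKT. T cell EFF in M2 (9.33 to 10.6) overlapped M6 (10.2 to 11.6), and T cell Naive had 0.145% in M2 and 0.154% in M5. T cell MEM had 1.61%, 2.05%, 5.54% and 5.72% of the cells of M1, M2, M5 and M6. As a share of the 5 T cell labels it had 14.7%, 14.8%, 21.5% and 26.5%, while T cell EFF went the other way, with 71.2%, 71.8%, 60.6% and 50.2%. What condition each library had is not known here, so this spread cannot be told apart from treatment. The 203 cells were shallow, with a median of 4492 UMIs (1514 to 46770), close to the NKT label (4287) and below T cell EFF (10049). Median UMIs over all cells of a library ran from 11399 to 21800, and of the 111 barcodes that occur in more than 1 library, 1 belongs to a cell of the label.

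**Figure D1:**
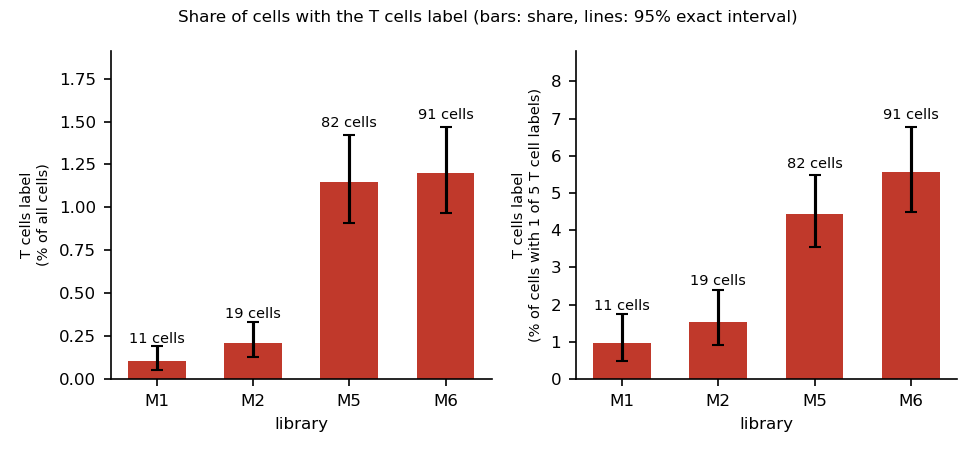
Share of cells with the T cells label in each library, as a percent of all cells (left) and of cells with any of the 5 T cell labels (right). Bars are shares and lines 95% exact binomial intervals; M5 and M6 stand at 1.15% and 1.20% of all cells, M1 and M2 at 0.107% and 0.213%.

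The cells were T cells by their defining transcripts. All 203 had at least 1 UMI of Cd3e, Cd3d or Cd3g, the invariant chains of the T cell receptor complex. With all UMIs used, so did 99.4% of T cell EFF and 25.7% of NK cells. At equal depth Cd3e was detected in 71.2% of them (141 of 198, interval 64.4 to 77.4), against 1.26% of cells labelled NK cells, and in 58.5% to 66.8% of the 4 other T cell labels. Icos, a costimulatory receptor of activated T cells, was detected in 76.8% (interval 70.3 to 82.5, 22.9% in NK cells). Among the other T cell labels it was detected in 73.9% of NKT (70.5 to 77.1), 66.4% of T cell MEM, 60.4% of T cell Naive and 57.6% of T cell EFF. Trbc1, a constant region of the T cell receptor beta chain, was detected in 54.5%, but in 78.4% of NK cells, so it did not set the label apart from NK cells. The 7 genes of the receptor and CD3 list had 6164 CPM in all in the label and 6218 in the pooled other T cell labels.

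The T cells label was almost empty of CD8 transcripts. Cd8a (chromosome 6 of GRCm38, 71373427 to 71379173) had 2 UMIs in 203 cells, 1.71 CPM (Poisson interval 0.207 to 6.18), against 539 CPM in the pooled other T cell labels. Cd8b1 had 9 UMIs in 9 cells, 7.70 CPM against 443. No cell had 2 or more UMIs of these genes together, which allows up to 1.48% of cells seen with 2 such UMIs at this depth. It does not limit the share that expressed CD8, since 11 of 203 cells (5.42%) had a single UMI. T cell EFF had 597 CPM of Cd8a, T cell MEM 424, NKT 114 and T cell Naive 9.19, so T cell Naive came nearest.

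Cd4 and Foxp3 were both higher in the label than in the pooled other T cell labels. Cd4 (chromosome 6, 124864692 to 124888221) had 236, 120, 237 and 167 CPM in the label in M1, M2, M5 and M6, and 15.5, 13.6, 41.4 and 55.0 in the pooled other T cell labels. Foxp3 (chromosome X, 7573644 to 7595245) had 193, 160, 283 and 225 CPM in the label and 7.70, 14.1, 48.9 and 60.3 in the others. In each of the 4 libraries both genes were higher in the label, and the 2 sets of values do not overlap. M1 and M2 rest on few UMIs, with 46584 and 125114 in all in the label. With all UMIs used, Foxp3 was seen in 2 of 11 cells of M1 and 6 of 19 of M2, and Cd4 in 6 and 9. At 2000 UMIs, Cd4 was detected in 31.8% of the cells (interval 25.4 to 38.8) and Foxp3 in 34.8% (28.2 to 41.9). For Cd4 the shares were 39.6% in T cell Naive (26.5 to 54.0), 23.1% in NKT (20.1 to 26.4), 11.8% in T cell MEM and 3.39% in T cell EFF. The interval of the label overlaps those of T cell Naive and NKT. Over all libraries Cd4 had 192 CPM in the label, 221 in T cell Naive and 145 in NKT. For Foxp3 the shares were 23.8% in NKT, 9.43% in T cell Naive, 8.92% in T cell MEM, 3.39% in T cell EFF and 0.190% in NK cells. With the libraries pooled, the interval of the label does not overlap those of these other labels. In M1, M2, M5 and M6 the label had 9.09%, 21.1%, 45.7% and 31.0%, and NKT 7.32%, 17.2%, 30.8% and 28.7%. At 1000 UMIs the interval of the label (15.3 to 26.9) overlaps those of NKT (13.1 to 18.4) and T cell Naive (2.02 to 17.6).

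With all UMIs used, 64 of 203 cells had both Foxp3 and Cd4, 46 had Foxp3 without Cd4, 51 had Cd4 without Foxp3 and 42 had neither. These 42 cells were the shallowest, with a median of 3346 UMIs against 5313 in cells with both, and the part of depth in this was not tested. Among the 129 cells with at least 4000 UMIs, thinned to that depth, 81.4% had Cd4 or Foxp3, 57.4% had Foxp3 and 18.6% had none of Cd4, CD8 transcripts and Foxp3. By library, Foxp3 was detected at 2000 UMIs in 1 of 11 cells of M1, 4 of 19 of M2, 37 of 81 of M5 and 27 of 87 of M6. T cell EFF, T cell MEM and NKT had lower Foxp3 shares in M1 and M2 as well (1.17% to 17.2%, against 4.67% to 30.8% in M5 and M6).

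**Figure D2:**
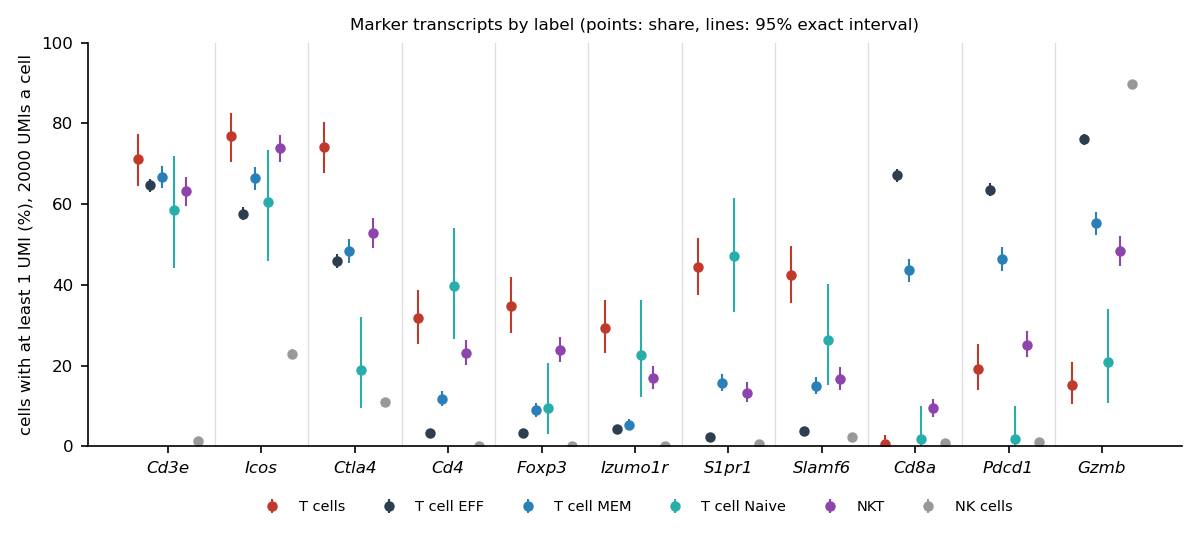
Percent of cells with at least 1 UMI of each gene, at 2000 UMIs a cell, in the 5 T cell labels and NK cells. Points are shares and lines 95% exact binomial intervals. The T cells label (198 cells) joins high Foxp3 (34.8%), S1pr1 (44.4%) and Slamf6 (42.4%) with 0.505% for Cd8a. T cell Naive also has high S1pr1 (47.2%) with 1.89% for Cd8a.

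Against the pooled other T cell labels, 6166 genes reached 20 CPM on either side and were described by the median of the log2 ratios in M5 and M6, the libraries with at least 20 cells of the label, with a pseudocount of 1 CPM. By a rule of size with no test, 331 genes (5.37%) were at least 2-fold higher in the label with the same sign in both libraries, and 530 (8.60%) at least 2-fold lower. The median over all described genes was -0.02. Ratios of genes with a few UMIs on one side depend on the pseudocount. Because T cell EFF makes up most of the pool, the NKT label was also used alone, and then 90 of 5958 genes were higher (1.51%) and 226 lower (3.79%).

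**Figure D3:**
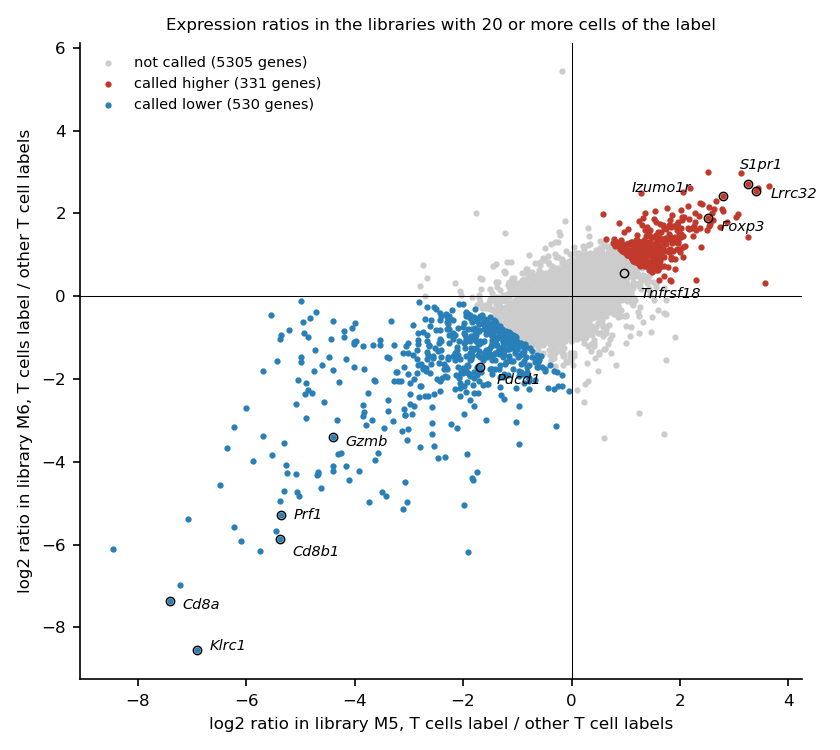
Log2 ratio of the T cells label to the pooled other T cell labels for 6166 genes, library M5 (x axis) against M6 (y axis). Red and blue points are genes at least 2-fold higher (331) or lower (530) in the median with the same sign in both; Cd8a, Klrc1 and Prf1 lie far down and S1pr1 and Lrrc32 at the upper right.

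Treg genes were the first group on the higher side. Of 21 listed genes, 16 were described, 8 were called higher and 0 lower, with a median log2 ratio of 1.01. The 8 were Foxp3 (2.19), Ikzf2, which encodes the factor Helios (1.41), Ctla4 (1.40), Izumo1r, the folate receptor family member of Treg cells (2.61), Lrrc32, which encodes the TGF-beta anchor GARP (2.97), Nrp1 (1.95), Il1rl1, the IL-33 receptor (1.15), and Tnfrsf4, which encodes OX40 (1.04). Lrrc32 had 64.4, 79.9, 87.0 and 70.6 CPM in the label in M1, M2, M5 and M6, and 2.99 to 11.4 in the others. Izumo1r had 279, 160, 187 and 201 CPM in the label and at most 36.6 in the others. For both genes all 4 libraries of the label lie above all 4 of the pooled labels. M1 and M2 rest on few UMIs, since the label holds 46584 and 125114 UMIs of all genes there. After thinning, Lrrc32 was detected in 0% of the label's cells in M1 and 15.8% in M2, and Izumo1r in 27.3% and 21.1%. In M1, with 11 cells of the label, Nrp1 (0 against 21.4 CPM) and Il1rl1 (42.9 against 61.6) went the other way, while the other 6 called genes were higher in each library.

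Other members of the Treg list did not pass the 2-fold rule. Il2ra, the IL-2 receptor alpha chain, had 188 CPM against 114, Tnfrsf9 (4-1BB) 805 against 929, and Areg 63.3 against 67.6. Ccr8, a chemokine receptor of Treg cells in tumors, had only 5 UMIs, and Tigit, a checkpoint receptor, 5. Against NKT alone, 2 of the 16 described Treg genes were higher (Nrp1, log2 ratio 1.29, and Lrrc32, 1.05), 1 was lower (Klrg1, -1.92), and the median was -0.15. The Foxp3 ratio to NKT was 0.08 and the Ikzf2 ratio -0.17.

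Of the receptors that the bispecific binds, GITR was higher and PD-1 lower than in the pooled other T cell labels, which are mostly T cell EFF. Tnfrsf18 (chromosome 4, 156026164 to 156028895), which encodes GITR, had 902, 791, 759 and 665 CPM in the label in M1, M2, M5 and M6, and 304, 374, 388 and 451 in the others. It was higher in each library, but its log2 ratio of 0.76 stayed under the 2-fold rule, and against NKT alone, with 750 CPM, it was -0.20. Pdcd1 (chromosome 1, 94038305 to 94052553), which encodes PD-1, had 64.4, 79.9, 148 and 132 CPM in the label and 552, 734, 480 and 435 in the others, a log2 ratio of -1.70. NKT had 254 CPM of Pdcd1 (-0.63, not called), and T cell Naive, with 18.4 CPM, lay below the 130 CPM of the label. At 2000 UMIs a GITR transcript was detected in 68.2% of cells and a PD-1 transcript in 19.2%, against 49.8% and 63.6% of T cell EFF. Of the 9 genes of the costimulation and checkpoint list, 2 were higher (Ctla4 and Tnfrsf4) and 1 lower (Pdcd1). Icos had 863 CPM against 490 (0.76), Cd27 507 against 294 (0.85) and Cd28 429 against 309 (0.37), all under the rule. Against NKT alone 0 of the 9 genes were called, and the ratios of Icos (-0.13) and Cd28 (-0.31) turned negative.

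Genes of naive, central memory and recirculating T cells formed the other group on the higher side: of 9 genes 6 were higher and 0 lower, with a median log2 ratio of 1.57. S1pr1 (chromosome 3, 115710433 to 115715072), the receptor that lets T cells leave tissue along sphingosine-1-phosphate, had 644, 264, 244 and 247 CPM in the label and 14.0, 15.5, 24.6 and 36.6 in the others (log2 ratio 2.99). Slamf6, a surface receptor of stem-like and memory T cells, had 408, 224, 252 and 253 CPM against 15.1, 19.1, 39.1 and 50.1 (2.49). Every library of the label lies above every library of the others for these genes, though M1 and M2 rest on few UMIs of the label. Tcf7 had a ratio of 1.60, Klf2, a transcription factor that drives S1pr1, 1.57, and Lef1 1.12. In M1 Lef1 went the other way, with 0 CPM against 13.8. Il7r (0.94), Ccr7 (0.32) and Satb1 (-0.65) were not called.

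S1pr1 and Slamf6 also stood above NKT alone (log2 ratios 1.79 and 1.32), and they were 2 of the 9 listed genes higher in that comparison, with Satb1 lower (-1.15). T cell Naive had more of several of the listed transcripts: Klf2 1479 CPM against 669 in the T cells label, Tcf7 335 against 107 and Lef1 262 against 73.5. It also had more S1pr1, 368 against 263, and less Slamf6, 216 against 256. Its Ctla4, 331 CPM, and Ikzf2, 349 CPM, lay below the T cells label, at 942 and 1183 CPM. T cell Naive held only 55 cells in all and is given by its values.

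Cytotoxic genes were the clearest group on the lower side, with 13 of 13 lower and a median log2 ratio of -4.07. Gzmb, which encodes granzyme B, had 21.5, 16.0, 122 and 180 CPM in the label in M1, M2, M5 and M6, against 1892, 2322, 2588 and 1925 in the others. Prf1, which encodes perforin, had 13.7 CPM in all against 692, and Nkg7 74.4 against 1737. For Gzmb and Prf1 the libraries of the label and of the others do not overlap, though M1 and M2 rest on few UMIs of the label. Against NKT alone, 12 of 12 described genes of this list were lower, with a median of -2.70. T cell Naive lay near the label, with 101 CPM of Gzmb against 133, 36.8 of Prf1 against 13.7 and 50.5 of Nkg7 against 74.4. Ifng, the effector cytokine, had 9 UMIs in 8 cells, 7.70 CPM against 325.

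Of the exhaustion list, 6 of 7 genes were lower and 1 higher. Havcr2, which encodes TIM-3, had 3 UMIs (2.57 CPM, Poisson interval 0.529 to 7.50, against 105), Lag3 33.3 CPM against 360, Entpd1 15.4 against 61.9, and Eomes 6.84 against 32.8. Cd160 had 1 UMI (0.855 CPM, Poisson interval 0.0216 to 4.76). Tox, a factor of exhausted cells that Treg and memory cells also express, went the other way, with 159 CPM against 90.2 (log2 ratio 1.24). Tox was higher in the label in M1, M5 and M6 (150, 187 and 154 CPM against 112, 79.2 and 64.3), and lower in M2, with 79.9 against 122. Against NKT alone, 6 genes of the list were described, 0 were higher and 3 lower (Havcr2, Lag3 and Cd160), and Tox (0.60), Pdcd1 and Entpd1 (-0.95) were not called.

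Of the helper list, which holds factors and cytokines of the CD4+ subsets, 6 of 15 genes were described. Cd4 and Cxcr3 (log2 ratio 1.35) were higher, and Ifng and Tbx21, the factor of T helper 1 cells (-2.66), lower. Against NKT alone 0 of these genes were higher and 2 lower, and the Cxcr3 ratio was -0.27, from 139 CPM against 149. Il4, Il5, Il13, Il21 and Il22 had 0 or 1 UMI each in the label. Cd40lg, the ligand that helper cells show to B cells, had 8 UMIs in 6 cells. Il2 had 44 UMIs, but 97.7% of them in 3 cells, and Cxcr5, a receptor of follicular T cells, 13 UMIs in 11 cells against 0.431 CPM in the pooled labels.

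Proliferation genes were lower, 10 of 12, with a median of -1.84 against the pool. Mki67, a marker of cycling cells, had 0, 136, 19.6 and 70.6 CPM in the 4 libraries of the label, a wide spread from 64 UMIs in 18 cells. In the pool the values were 182, 218, 145 and 133, and most of this came from T cell EFF (200 CPM), while T cell MEM had 17.3. Against NKT alone 0 of 10 described proliferation genes were called in either direction, and against T cell MEM alone the Mki67 ratio was 0.98, under the 2-fold rule. Of the early response list, 3 of 11 genes were lower (Nr4a2, Hspa1a and Hspa1b), and of the interferon list 1 of 10 was higher (Ifi27l2a, 1.34). With NKT alone as the other side, 3 of 11 early response genes were lower and 0 higher, and 0 of 10 interferon genes were called. In the signalling list Cd2 (1.10) and Cd5 (1.51), a negative regulator of receptor signals, were higher and Thy1 lower (-1.03), while against NKT alone 0 of the 9 were called and the Cd2 ratio was -0.01.

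The genes with the largest ratios, by rank, were St8sia6 (3.16), Rflnb (3.05), Trib2 (3.02), S1pr1, Lrrc32, Cpm (2.76), Izumo1r, Lrig1 (2.53), Slamf6, Trat1, a receptor-associated adaptor (2.44), Aff3 (2.43), Ighm (2.40), A630023P12Rik (2.36), Ldlrad4 (2.35) and Tmem64 (2.34). Of these 15, 10 were also called higher against NKT alone: St8sia6, Rflnb, Trib2, S1pr1, Lrrc32, Cpm, Lrig1, Slamf6, Aff3 and Ldlrad4. T cell Naive had a higher CPM than the T cells label for 7 of the 15. Rflnb had 142 CPM against 40.2, A630023P12Rik 87.3 against 37.6, S1pr1 368 against 263 and Tmem64 175 against 143. Trib2 had 115 against 87.2, Lrig1 96.5 against 78.7 and St8sia6 32.2 against 29.1. T cell Naive had 217683 UMIs in all and no interval is given for it. Its St8sia6 value lies inside the Poisson interval of the T cells label (20.1 to 40.6). Several of the 15 rest on few UMIs in the T cells label, such as 28 for Cpm and 34 for St8sia6. At the other end stood Klrc1, Cd8a, Klrk1, Serpine2, Nrgn, Cd160, Xcl1, Klrc2, Cd8b1, Ifng, Cxcr6, Prf1, Klrd1, Slc16a11 and Il12rb2. Among them are NK receptors shared by effector CD8+ cells (Klrc1, Klrk1, Klrc2 and Klrd1) and the residency chemokine receptor gene Cxcr6, with 10.3 CPM against 497. Serpine2 and Slc16a11 had 0 UMIs in the label, which allows up to 2.57 CPM, against 105 and 42.0 CPM.

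Transcripts of myeloid and B cells were also seen. With all UMIs used, at least 2 UMIs of the 9 myeloid genes were in 56 of 203 cells (27.6%) and at least 2 of the 6 B cell genes in 55 (27.1%), with 286 and 366 UMIs in all. At 2000 UMIs, at least 1 UMI of the myeloid genes was in 77 cells and at least 1 of the B cell genes in 50. The 9 myeloid genes had 245 CPM in all in the label against 688 in the pooled labels (128 to 269 over the 4 libraries), and Lyz2 was detected at 2000 UMIs in 20.2% of cells, within the range of the other T cell labels (16.6% to 24.5%), and in 14.0% of NK cells. Csf1r was at 0. The 5 NK genes had 15 UMIs in all, and Zbtb16, the factor of NKT cells, had 0. The 6 B cell genes had 313 CPM against 45.9, with 42.9, 95.9, 207 and 478 CPM in M1, M2, M5 and M6. Of their 366 UMIs, 95 were in 1 cell of M6 with 16230 UMIs, which held all UMIs of Cd79a (22) and Ms4a1 (24) and also 15 UMIs of CD3 chains and 4 of Foxp3. The other 271 UMIs were in 94 cells and all but 1 were immunoglobulin transcripts: Ighm was seen in 84 of these cells and Igkc in 28. At 2000 UMIs Ighm was detected in 19.2% of the label, 2.91% of T cell EFF, 13.5% of NKT and 7.78% of NK cells. The part of free RNA or doublets in these transcripts was not tested, and doublets were not removed.

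The cells were also placed among all 14501 lymphocytes thinned to 2000 UMIs, in 30 principal components. Of the 20 nearest cells of each, 32.6% had the T cells label too, which makes up 1.37% of the lymphocytes. A further 25.5% were NKT (4.92% of lymphocytes), 24.2% T cell MEM (7.88%), 9.57% T cell EFF (24.4%), 5.40% T cell Naive (0.365%) and 0.177% NK cells (29.1%). The median cell had 6 neighbours of its own label, 49 of 198 had 10 or more, the highest had 14 and 5 had none. Seen from the other side, 25.7% of the neighbours of T cell Naive cells had the T cells label, against 9.77% for NKT, 5.20% for T cell MEM and 0.709% for T cell EFF.

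Foxp3+ cells were spread over the T cell labels. At 2000 UMIs 466 cells of the 5 labels had a Foxp3 UMI, of which 69 (14.8%, interval 11.7 to 18.4) carried the T cells label, 170 NKT (36.5%), 120 T cell EFF (25.8%), 102 T cell MEM (21.9%) and 5 T cell Naive. The 69 cells were set beside the 170 NKT cells, a comparison chosen after the values had been seen. Their libraries differ: M1, M2, M5 and M6 gave 1, 4, 37 and 27 of the 69 cells, and 9, 20, 70 and 71 of the 170. Both groups were chosen for a Foxp3 UMI, so a like level of Foxp3 was set by the choice. Foxp3 had 725 CPM (Poisson interval 590 to 881) in the former and 853 (758 to 957) in the latter, Tnfrsf18 993 and 1159, and Cd4 210 and 200, all with overlapping intervals. Over all 6438 genes with at least 20 CPM in either group of Foxp3+ cells, 89 (1.38%) were higher and 103 (1.60%) lower in the T cells label with Poisson intervals apart. Of the 21 genes of the Treg list, 19 of which reached 20 CPM, 6 were lower in the T cells label with intervals apart (Capg, Icos, Il2ra, Klrg1, Tnfrsf4 and Tnfrsf9), 0 were higher and 15 overlapped. Among the latter, Nrp1 had 87.0 CPM against 41.2, Lrrc32 109 against 79.4 and Il1rl1 188 in both. Icos had 957 CPM (800 to 1134) against 1406 (1283 to 1538) and Tnfrsf4 942 (787 to 1119) against 1447 (1322 to 1581). For the 6 genes, the Foxp3+ cells of T cell MEM had 1108 CPM of Icos, 897 of Tnfrsf4, 294 of Il2ra, 525 of Capg, 1667 of Tnfrsf9 and 127 of Klrg1.

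Of the 9 genes of the naive and central memory list, 4 were higher in the Foxp3+ cells of the T cells label with intervals apart (S1pr1, Klf2, Tcf7 and Lef1), 0 were lower and 5 overlapped. S1pr1 had 304 CPM (219 to 411) against 73.5 (47.6 to 109) in NKT, Klf2 696 (563 to 850) against 432 (365 to 508) and Tcf7 94.2 (50.2 to 161) against 23.5 (10.2 to 46.4). In M5 and M6 S1pr1 had 338 and 296 CPM, against 71.4 and 84.5 in NKT, so both libraries showed it. Lef1 had 116 CPM (66.3 to 188) against 38.2 (20.4 to 65.4), but in M6 it went the other way, with 37.0 against 42.3. For these 4 genes the Foxp3+ cells of T cell MEM lay between the T cells label and NKT. They had 152 CPM of S1pr1, 480 of Klf2, 58.8 of Tcf7 and 44.1 of Lef1. Tnfrsf9 had 1000 CPM (840 to 1181) against 2306 (2147 to 2473) and Il2ra 225 against 568. Outside the lists, and named after their values had been seen, Ly6a had 754 against 2138 and Itgae, which encodes the integrin CD103, 94.2 against 265. Of the 13 cytotoxic genes, 12 of which reached 20 CPM, 4 were lower with intervals apart (Gzma, Gzmb, Ccl5 and Nkg7), 0 were higher and 9 overlapped, with Gzmc at 87.0 against 115 and Gzme at 36.2 against 17.6. Gzmb had 283 CPM (201 to 386) against 1215 (1100 to 1338). Klrg1, a marker of terminally differentiated cells, had 0 UMIs, which allows up to 21.7 CPM, against 176 CPM from 60 UMIs. These intervals cover counting error only. In M5 and M6 Gzmb had 216 and 407 CPM, below 950 and 901 in NKT. Pdcd1 (123 against 165), Cd27 (638 against 618) and Cd28 (493 against 474) had overlapping intervals.

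**Figure D4:**
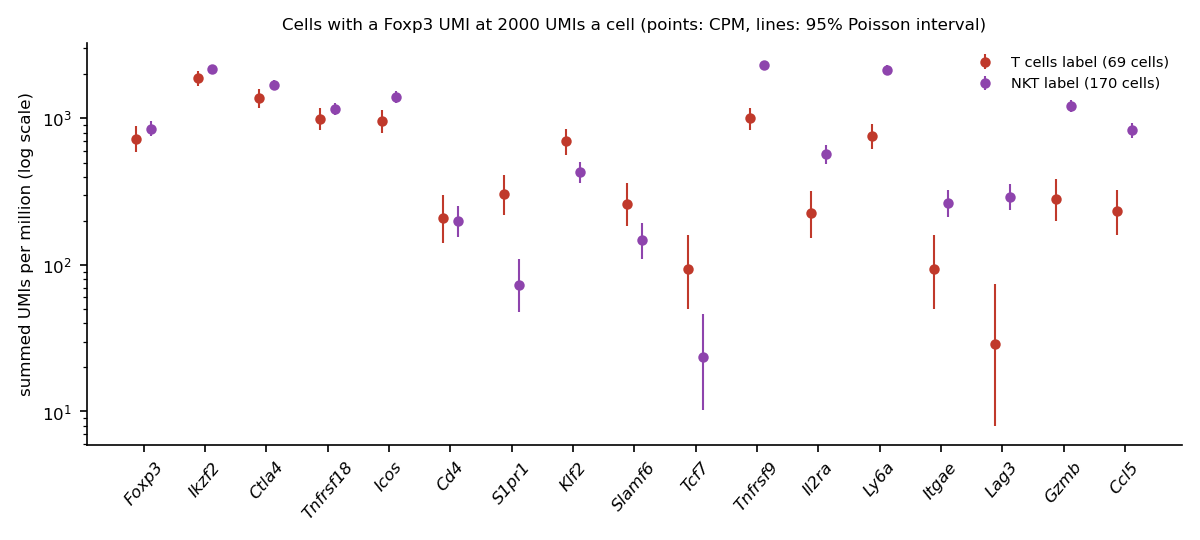
Expression in cells with a Foxp3 UMI at 2000 UMIs a cell, in CPM on a log axis, for the T cells label (69 cells) and the NKT label (170 cells). Points are CPM and lines 95% Poisson intervals; S1pr1, Klf2 and Tcf7 lie higher in the T cells label, and Tnfrsf9, Il2ra, Ly6a, Lag3, Gzmb and Ccl5 lower.

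Within the label, 108 of the 198 cells had a Foxp3 UMI when all their UMIs were used and 90 had none, a split also chosen after the values had been seen. The former were deeper (median 5058 UMIs against 3938), so their genes were compared at 2000 UMIs, and some of the 90 may carry Foxp3 below detection. The 2 groups also differ in their libraries. Cells with Foxp3 numbered 2, 6, 50 and 50 in M1, M2, M5 and M6, and cells without 9, 13, 31 and 37. The pooled shares mix these libraries. Ikzf2 was detected in 88.9% of the Foxp3+ cells and 52.2% of the others, Tnfrsf9 in 68.5% and 34.4%, Tnfrsf4 in 82.4% and 60.0%, Tnfrsf18 in 77.8% and 56.7% and Ctla4 in 83.3% and 63.3%. These shares were higher with Foxp3 in both M5 and M6.

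Several genes did not part the cells of the label by Foxp3. Icos was detected in 77.8% and 75.6%, Cd4 in 29.6% and 34.4%, Izumo1r in 30.6% and 27.8%, S1pr1 in 41.7% and 47.8%, and Slamf6 in 38.9% and 46.7%, with overlapping intervals. Cells without Foxp3 had more Klf2, in 74.4% against 48.1%, and more Tnfsf8, which encodes the CD30 ligand, in 25.6% (23 of 90) against 2.78% (3 of 108). For Tnfsf8 the shares were 22.6% against 2.00% in M5 and 21.6% against 2.00% in M6. Tbc1d4 was detected in 31.1% against 11.1%, and Tnfsf11, which encodes RANK ligand, in 12.2% against 0.926%. Within M5 and within M6 the shares of Klf2, Tbc1d4 and Tnfsf11 were also higher without Foxp3. Tnfsf8, Tbc1d4 and Tnfsf11 were named after their values had been seen.

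**Figure D5:**
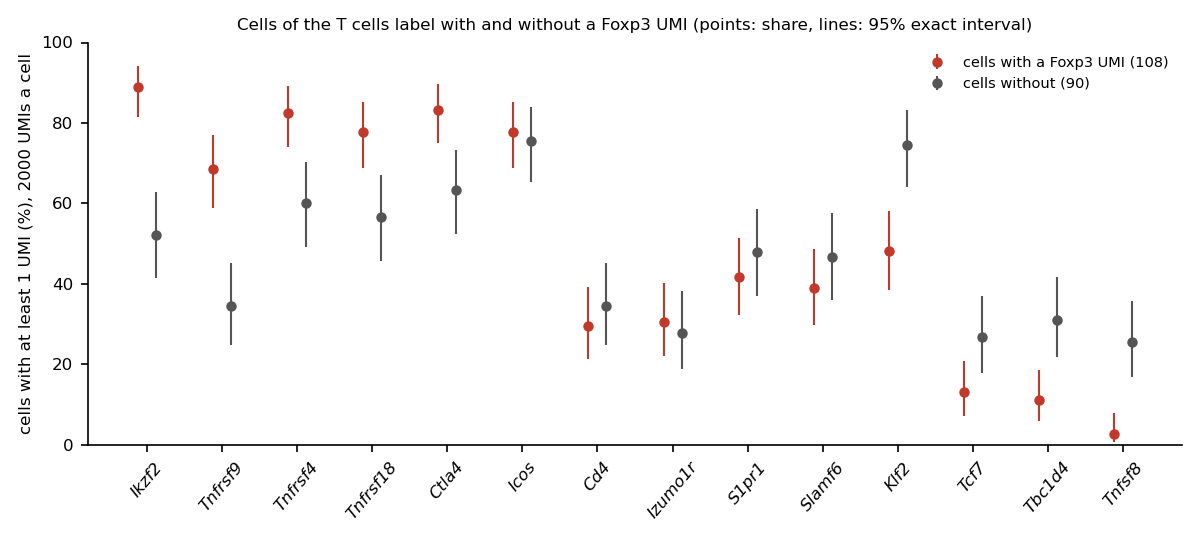
Percent of cells of the T cells label with at least 1 UMI of each gene, at 2000 UMIs a cell, for 108 cells with and 90 cells without a Foxp3 UMI. Points are shares and lines 95% exact binomial intervals; Ikzf2 and Tnfrsf9 lie higher with Foxp3, Klf2 and Tnfsf8 lower, and S1pr1, Slamf6 and Izumo1r overlap.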

How the data were processed

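CD45+-enriched cells of CT26 tumors were profiled with 10x 3' chemistry. The authors counted UMIs with Cell Ranger 3.0.2 on GRCm38 (mm10), kept cells above 500 UMIs and deposited raw, not normalized counts of 31053 genes in 33961 cells, with each cell's total count, library name and cell type label. Each cell had been named after the ImmGen reference profile it correlated with best. No removal of doublets or free RNA is given in the sources used here, and none was done.

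The 4 library names match no sample label, so the planned treatment comparison was not run and values are given library by library, not as replicates. The members, gene lists and comparisons were chosen with earlier results of these data known.

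Counts were summed per label and library and scaled to CPM (Python 3.11.15, NumPy 2.4.6, SciPy 1.17.1, pandas 2.3.3). Named genes are those of the lists, and the 15 largest and 15 smallest ratios among called genes whose 3 richest cells hold under 50% of the UMIs. Mitochondrial, ribosomal protein and Gm-numbered genes were not ranked, 5 of those called higher and 6 of those called lower. Some members of the lists are counted with them and not reported here by name. Cells were thinned without replacement. The ratios and the calling rule were tested on simulated Poisson counts, and the thinning was checked on the cells of the label. The simulation had no spread between cells, so it does not cover genes with most UMIs in a few cells. Intervals (95%) and the limit for a count of 0 (3 counts) cover counting error only. Positions are from GENCODE M21. Depth limits small values: 1 UMI in the label, with all libraries pooled, is 0.855 CPM. Within a library 1 UMI weighs more, above all in M1 and M2, which hold 46584 and 125114 of the label's 1169488 UMIs. Summed marker lists not named in the report, in the label and in the pooled other T cell labels, are dendritic 12.8 and 21.6 CPM, mast 18.0 in the label, stroma and tumor 120 and 218, ILC2 910 and 383 (Gata3, Il1rl1 and Rora, which T cells share, and Il17rb), erythroid 1.71 and 112, and gamma delta 28.2 and 60.5.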

Additional observations from a re-analysis of the deposited data

How the results depend on the processing

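Shares of cells moved mainly with depth. With 1000 or 4000 UMIs a cell, or with all UMIs, the share of the label with Foxp3 was 20.7%, 57.4% and 54.2% in place of 34.8%, with Cd4 in 22.2%, 51.9% and 56.7% in place of 31.8%, Cd3e in 39.9%, 86.8% and 91.1% in place of 71.2%, Trbc1 in 47.3%, 69.8% and 64.0% in place of 54.5% and Icos in 56.2%, 88.4% and 92.1% in place of 76.8%. Cd8a or Cd8b1 fell from 2.53% to 0% where 2 UMIs were needed. Leaving out 1 library at a time gave Foxp3 shares of 27.4% (without M5) to 37.8% and label shares of 0.424% to 0.811% of all cells (without M6 and without M1), and with the 5 T cell labels as denominator the share was 3.47%. Without M5 or M6 the Cd4 share was 25.6% or 38.7%. Leaving out cells over 10% mitochondrial UMIs or over 20000 UMIs kept each of these shares of the label within its interval. Only 15 and 6 of the 203 cells were over these limits, so the shares had little room to move. The 6 deepest cells held 16.6% of the label's UMIs and so weigh more in summed CPM than in shares of cells. No cell of the label exceeded 1% myeloid UMIs, so that limit removed 0 cells.

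The count of genes higher in the label, 331, became 203 against T cell MEM alone, 90 against NKT alone and 630 with no minimum level. The count of lower genes, 530, became 226 against NKT alone, 1185 with a minimum of 5 CPM and 1949 with none. With all 4 libraries, an alternative chosen after seeing the data, 222 of the 331 higher and 384 of the 530 lower genes were called again. Leaving out 1 library at a time gave 316 to 460 higher and 518 to 682 lower genes, with the most in M5 alone (without M6). Of 559 log2 ratios recomputed for 43 of the named genes, 556 kept their sign and 139 moved by more than M5 and M6 differ. The others were Ikzf2 (-0.17) and Tnfrsf4 (-0.03) against NKT alone and Mki67 (0.98) against T cell MEM alone. Of the 91 listed or named genes called against the pool, 11 had the other sign against NKT alone: besides Ikzf2 and Tnfrsf4 these were Cxcr3 (-0.27), Cd2 (-0.01), Itgae (-0.16), Tyms (0.26), Cdk1 (0.32), Top2a (0.38), C1qb (0.08), Cd68 (0.75) and Col1a2 (0.56). Genes not called also turned, such as Tnfrsf18 (-0.20), Icos (-0.13), Cd28 (-0.31) and Il2ra (-0.63). The cause of these moves was not tested. The neighbour shares of the T cells, NKT and T cell MEM labels stayed within 1.5 times under 50 neighbours, 15 components or neighbours of the same library, while that of NK cells, 0.177%, was 0.354% with 50 neighbours and 0.480% within the library, and that of B cells, 0.0505%, was 0.758% with 15 components. No paired analysis was possible because the libraries could not be matched to the numbered samples.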

Other observations

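Trdc, the constant region of the gamma delta receptor, had 22 UMIs in 8 cells of the label (18.8 CPM), against 88.2 CPM in NKT and 23.4 in the pooled other T cell labels, and Cd163l1, a gene of gamma delta T cells, had 0 UMIs against 30.2 CPM in NKT. Hbb-bs, a hemoglobin gene, had 1.71 CPM in the label and 1068 CPM in NKT, and in the pooled other T cell labels it had 197 CPM in M5 and at most 0.751 in the other libraries. In these labels 3 cells held 99.3% of its UMIs, so the NKT value is not a level of that label.

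Tcf7 and Tnfsf8 differed between the libraries of the label. Tnfsf8 was detected at 2000 UMIs in 54.5% of the 11 cells of M1, 15.8% of M2, 9.88% of M5 and 10.3% of M6, and Tcf7 in 9.09%, 42.1%, 13.6% and 20.7%. With 11 and 19 cells in M1 and M2, each cell moves these shares by several percent.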
